A study of Mus musculus with 6 samples.

Results

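The tissue inhibitors of metalloproteinases (Timp1 to Timp4), 4 matrix metalloproteinases (Mmp2, Mmp9, Mmp14 and Mmp15) and the related protease Adamts1 were followed in isolated pancreatic islets, which hold the insulin-secreting beta cells and other endocrine cells. These 9 genes were listed by symbol, and all 9 were among the 18437 genes measured. The islets came from male mice aged 30 weeks, as 3 libraries from Sec16b-/- animals (knockout) and 3 libraries from Sec16b+/+ animals (wild type). Sec16b encodes a protein of the sites where secretory cargo leaves the endoplasmic reticulum. How the knockout allele was made is not given in the sources used here. Nor do the labels state that every library is its own animal, so the spread behind a p-value may be technical. Timp4 was selected on its normalized counts, which were higher in the knockout libraries. The Timp4 difference between the genotypes is therefore described and carries no test. The other 8 were chosen by family, but with earlier results of these data known, so their p-values and counts are not free of selection.

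Matrix metalloproteinases are zinc enzymes that cut collagens, laminins and other proteins of the extracellular matrix, and Timp proteins block them by occupying the active site. Mmp14 sits in the cell membrane and, with Timp2 as a bridge, activates the secreted gelatinase Mmp2. Islets are wrapped in a basement membrane rich in collagen IV and laminin, made largely by the endothelial and stromal cells around the endocrine cells. In bulk islet RNA, fewer cells of a type and less RNA per cell cannot be told apart.

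Values are gene read counts scaled by the authors with 1 size factor for each library, here called normalized counts. The reads behind them came to between 22071895 and 24887766 per knockout library and between 22566274 and 26806787 per wild type library. Sec16b itself had 553, 433 and 749.5 normalized counts in knockout replicates 1, 2 and 3, and 1655, 773 and 1786 in wild type replicates 1, 2 and 3, so its transcript was still present in the knockout libraries. All 7 islet hormone genes checked were measured, and their mean log2 level was 16.72, 17.07 and 16.82 in knockout and 16.49, 16.80 and 16.66 in wild type libraries. Exocrine tissue differed widely between libraries. A list of 16 acinar genes, markers of the cells that make digestive enzymes, took 15.2%, 6.87% and 0.676% of reads in the knockout and 5.07%, 1.05% and 3.08% in the wild type libraries.

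The upstream sequences of Timp4 and Adamts1 are shown because these were the members whose 2 groups of libraries did not overlap. Timp4 was chosen for its higher knockout values, and the groups did not overlap in 9.08% of the 16042 genes tested. Each is the 250 bases before the annotated transcript start, from RefSeq on build GRCm38.p6, written 5′ to 3′ on the gene's strand. Timp4 lies at chr6:115252206-115252455 on the minus strand and Adamts1 at chr16:85803114-85803363 on the minus strand. Capitals mark matches to any of 5 motifs searched on both strands.
Timp4: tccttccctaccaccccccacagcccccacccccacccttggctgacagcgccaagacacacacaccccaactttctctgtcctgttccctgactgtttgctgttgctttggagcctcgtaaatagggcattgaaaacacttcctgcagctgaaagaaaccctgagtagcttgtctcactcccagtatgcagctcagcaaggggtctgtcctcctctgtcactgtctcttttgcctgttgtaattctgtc
Adamts1: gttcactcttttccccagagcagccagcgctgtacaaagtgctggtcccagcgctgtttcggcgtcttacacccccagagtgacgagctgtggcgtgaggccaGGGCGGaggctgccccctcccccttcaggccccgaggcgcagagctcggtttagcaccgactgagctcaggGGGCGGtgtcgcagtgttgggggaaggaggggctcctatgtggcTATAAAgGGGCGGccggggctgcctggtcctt
The motifs were the AP-1 motif TGANTCA, its variant TGAGTAA, the TATA box TATAAA, the GC box GGGCGG and the CCAAT box CCAAT, and they were searched from 250 bases before to 50 bases after the start of 7 members for which a sequence was at hand. Mmp2 and Mmp9 were the members without a sequence and were not searched. The Timp4 window held 0 matches. The Adamts1 window held a TATA box beginning 32 bases before the start and 3 GC boxes beginning 147, 76 and 25 bases before it. Of 32851 windows of this length, 13.6% held TATAAA and 35.7% GGGCGG. The variant TGAGTAA was found in the Timp1 window, 27 bases into the transcript, and in 2.68% of all windows, while TGANTCA was found in 0 of the 7 members' windows and in 7.81% of all. A match is a run of letters and was not shown to be a bound site.

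Of the inhibitors, Timp3 and Timp2 were the abundant ones, and neither differed between genotypes beyond the spread of the libraries. Levels are compared between genes per kilobase (kb) of annotated exon. In knockout islets the order from high to low was Timp3, Adamts1, Timp2, Timp1, Mmp15, Mmp14, Mmp2, Mmp9 and Timp4, and in wild type islets it was Timp3, Timp2, Timp1, Adamts1, Mmp15, Mmp14, Mmp2, Mmp9 and Timp4. Timp3 averaged 272 ± 47.8 normalized counts per kb in knockout and 244 ± 92.1 in wild type islets (SD, n = 3 each). Timp2 averaged 212 ± 38.5 per kb in knockout and 226 ± 17.1 in wild type islets (SD, n = 3 each), a distance from Timp3 smaller than the 2 SDs added together in each genotype. Timp1, at 110.3 ± 88.2 per kb in knockout and 137 ± 128 in wild type islets, also lay within the added SDs of both its neighbours in each order. Timp4 was last by mean in both genotypes, at 6.04 ± 2.58 per kb in knockout and 0.898 ± 0.265 in wild type islets (SD, n = 3 each). Its neighbour Mmp9, at 8.61 ± 10.4 in knockout and 3.11 ± 2.62 in wild type islets, lay within the added SDs in each genotype. Timp4 lay above Mmp9 in knockout replicates 2 and 3. It lay below in knockout replicate 1 and wild type replicates 1 and 3, and wild type replicate 2 had 0.821 for each. Per kb of coding sequence alone, a length chosen after the data were seen, Timp4 moved from place 9 to place 7 in knockout and place 8 in wild type islets, and Timp3 kept place 1 in both.

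Timp4, an inhibitor known mainly from heart, brain and fat, was present at low counts in all libraries. It had 50.3, 36.5 and 19.9 normalized counts in knockout replicates 1, 2 and 3, and 4.01, 4.84 and 7.03 in wild type replicates 1, 2 and 3. The lowest knockout value lay above the highest wild type value, which is the pattern for which the gene was chosen. The mean was 35.6 ± 15.2 in knockout and 5.30 ± 1.56 in wild type libraries (SD, n = 3 each), 6.72-fold higher in the knockout. These values rest on 41, 39 and 20 reads in the knockout and 4, 5 and 8 reads in the wild type libraries. On the log2(value + 1) scale, which understates the change of low genes, the difference was 2.47, and with single libraries left out it ran from 2.18 to 2.83. Timp4 passed the filter on low values, at least 10 normalized counts in at least 3 libraries, through its knockout libraries alone. Even so, Timp4 made up 1.26%, 1.04% and 0.642% of the summed Timp level per kb in the knockout libraries, and 0.167%, 0.100% and 0.200% in the wild type libraries.

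The Timp4 gene lies inside Syn2, a synapsin gene read on the opposite strand, and the strand setting of the counting is not given in the sources used here. Annotated exons of the 2 genes share 90 bases of the 5894 exon bases of Timp4. Syn2 had 1606, 1869.8 and 1914 normalized counts in the knockout and 1408, 2336 and 1834 in the wild type libraries, with overlapping groups (log2 difference −0.02, SE 0.19, adjusted p = 0.994, limma with Benjamini-Hochberg adjustment). Timp1 lies likewise inside Syn1 with 0 shared exon bases. Syn1 had 2936, 2697 and 2953 normalized counts in the knockout and 3161, 3625 and 3108 in the wild type libraries, without overlap and lower in the knockout (log2 difference −0.20, SE 0.095, adjusted p = 0.993, limma). Timp3 lies inside Syn3 and shares 1733 of its 8144 exon bases with it, and Syn3 lay between 46.6 and 50.8 normalized counts in knockout and between 33.9 and 47.1 in wild type libraries. Of the 10 adipocyte markers listed, 4 were measured and the defining ones, Adipoq and Plin1 among them, were not analysed here. The summed count of those 4 ran from 2189.7 to 3056 in knockout and from 2264 to 3165 in wild type libraries. The part of fat cells in the Timp4 values was not tested.

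Timp1, a secreted inhibitor that also binds the precursor of Mmp9, varied more within each genotype than between them. It had 179, 91.8 and 22.9 normalized counts in knockout replicates 1, 2 and 3, and 27.1, 248 and 88.8 in wild type replicates 1, 2 and 3. Knockout replicate 3 and wild type replicate 1 were the low libraries, and the groups overlapped throughout. Knockout minus wild type came to −0.22 in log2 (95% interval −2.54 to 2.10, adjusted p = 0.994, limma), and it turned to 0.59 without knockout replicate 3 and to 0.55 without wild type replicate 2.

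Timp2, which bridges Mmp14 and the Mmp2 precursor, was the steadiest member. It had 856, 959 and 664 normalized counts in the knockout and 893, 809 and 941 in the wild type libraries, a 1.45-fold span over all 6. The log2 difference was −0.11 (95% interval −0.47 to 0.26, adjusted p = 0.993, limma), and 0.04 without knockout replicate 3. Timp3, which stays bound to the matrix and also inhibits Adam17 and Adamts proteases, had 2022, 1959 and 2663 normalized counts in the knockout and 1204, 2699 and 2059 in the wild type libraries. Both ends of that range were wild type libraries. Its log2 difference was 0.22 (95% interval −0.47 to 0.91, adjusted p = 0.993, limma), and −0.10 without wild type replicate 1.

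**Figure D1:**
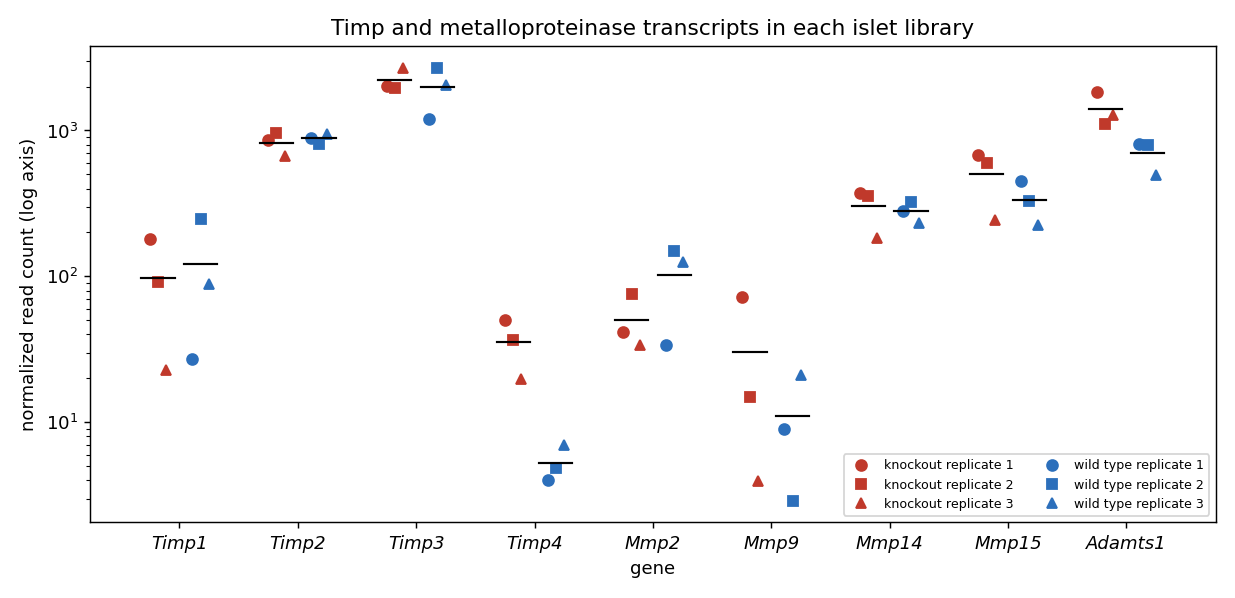
Normalized read count (log axis) of each of the 9 genes in each library, knockout in red and wild type in blue, with symbols for replicates and black bars for group means. The knockout points of Timp4 (19.9 to 50.3) and of Adamts1 (1102 to 1834) all lie above the wild type points, while the groups of the other 7 genes overlap. Timp4 was chosen for its higher knockout values, and the groups did not overlap in 9.08% of all tested genes.

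Adamts1 was the other member whose libraries did not overlap, and Timp4 had been chosen for that pattern. Without Timp4 this was 1 of 8 members, against 9.08% of all tested genes, and the 8 were chosen with earlier results known. It encodes a secreted protease that cuts the proteoglycans versican and aggrecan. It had 1834, 1102 and 1275 normalized counts in knockout replicates 1, 2 and 3, and 805, 799 and 498 in wild type replicates 1, 2 and 3. Every knockout library was above every wild type library. The mean was 1404 ± 383 in knockout and 700.5 ± 176 in wild type libraries (SD, n = 3 each), 2.004-fold higher in the knockout. On the log2 scale the difference was 1.002 (SE 0.25, 95% interval 0.40 to 1.61), and limma did not call it after adjustment over all genes (adjusted p = 0.993, unadjusted p = 0.00592). It was also not called by DESeq2 (adjusted p = 0.113) or by edgeR (adjusted p = 0.993). With single libraries left out, the difference ran from 0.77 to 1.16.

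Adamts1 is known to respond to injury and inflammatory signals, and 3 gene lists that vary with such signals or with vessels were read beside it. The mean log2 level of 16 immediate early genes, transcription factors switched on within minutes of a stimulus, was 10.87, 10.47 and 9.74 in knockout replicates 1, 2 and 3, and 9.94, 9.51 and 9.48 in wild type replicates 1, 2 and 3. Their summed count ran from 30934 to 56469.8 in knockout and from 24396 to 29067 in wild type libraries. By level, knockout replicate 3 lay below wild type replicate 1, so the groups overlapped. The level of 16 inflammatory genes was 9.93, 9.26 and 7.91 in the knockout and 8.22, 8.93 and 7.27 in the wild type libraries, again with overlap. All 14 endothelial markers were measured, and their level was 9.67, 9.51 and 9.45 in the knockout and 9.12, 9.44 and 9.14 in the wild type libraries, where the nearest values of the 2 groups were 9.45 and 9.44. Their summed count ran from 15373 to 17702 in knockout and from 12436 to 16184 in wild type libraries. The part of these lists in the Adamts1 values was not tested. With the acinar level as a covariate the Adamts1 difference was 0.96, and with the stellate and fibroblast level 1.002.

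Among the 4 matrix metalloproteinases of the set, Mmp15 and Mmp14, which are anchored in the membrane, had the higher mean levels per kb. The secreted gelatinases Mmp2 and Mmp9 had the lower. Per kb, Mmp15 averaged 93.9 ± 43.1 in knockout and 62.0 ± 21.3 in wild type islets, and Mmp2 15.0 ± 6.62 in knockout and 30.4 ± 17.9 in wild type islets (SD, n = 3 each). Mmp14 averaged 51.0 ± 17.6 per kb in knockout and 46.7 ± 7.66 in wild type islets (SD, n = 3 each). In wild type islets, but not in knockout islets, Mmp2 lay within the added SDs of both Mmp14 and Mmp15. Mmp15 had 679.8, 598 and 242 normalized counts in knockout replicates 1, 2 and 3, and 454, 326 and 224 in wild type replicates 1, 2 and 3. Knockout replicates 1 and 2 lay above all wild type libraries and knockout replicate 3 did not. The log2 difference was 0.52 (95% interval −0.51 to 1.55, adjusted p = 0.993, limma). Leaving out knockout replicate 3 gave 0.99, leaving out knockout replicate 1 gave 0.24, knockout replicate 2 gave 0.34 and wild type replicate 3 gave 0.26. With the acinar covariate it was 0.28. Mmp14 had 372, 357 and 183 normalized counts in the knockout and 282, 322 and 231 in the wild type libraries, so the knockout held both the highest and the lowest value. Its log2 difference was 0.07 (95% interval −0.64 to 0.78, adjusted p = 0.994, limma), and it turned negative without knockout replicate 1 (−0.11), knockout replicate 2 (−0.08) or wild type replicate 3 (−0.06) and with the acinar covariate (−0.07).

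Mmp2, the gelatinase of stromal cells, had 41.7, 75.9 and 33.9 normalized counts in knockout replicates 1, 2 and 3, and 34.1, 148 and 125 in wild type replicates 1, 2 and 3. Wild type replicates 2 and 3 were the high libraries, and wild type replicate 1 lay among the knockout values. The mean was 50.5 ± 22.3 in knockout and 102 ± 60.3 in wild type libraries (SD, n = 3 each). Between the genotypes Mmp2 differed by −0.84 in log2 (SE 0.61, 95% interval −2.28 to 0.60, adjusted p = 0.993, limma). It was −1.50 without wild type replicate 1 and −0.45 without wild type replicate 2.

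The level of 13 stellate and fibroblast markers, all measured and none of them a member, was 6.99, 7.17 and 6.02 in the knockout and 5.58, 7.66 and 6.74 in the wild type libraries. Their summed count ran from 2141 to 3912 in knockout and from 1602 to 6617 in wild type libraries. Of 15 marker and stress lists, this one was the nearest to both Mmp2 and Timp1, by the root mean square difference of log2 values centred over the 6 libraries (0.55 and 0.66). Their own spreads, the root mean square of the same centred values, were 0.85 for Mmp2 and 1.25 for Timp1. As single genes, Gm13961 (0.23), Pcdh10 (0.25) and Cspg4 (0.31) were nearest to Mmp2 among the 16042 genes tested. Cspg4, a pericyte surface proteoglycan, had 63.8, 119.9 and 51.8 normalized counts in the knockout and 72.2, 174 and 134 in the wild type libraries. The level of the 10 tested pericyte and smooth muscle markers, Cspg4 among them, did not follow it. That level was 7.06, 6.96 and 6.75 in the knockout and 6.75, 6.69 and 6.46 in the wild type libraries. With the stellate and fibroblast level as a covariate, the difference was −0.90 (SE 0.35) for Mmp2 and −0.32 (SE 0.42) for Timp1, and neither passed limma's test (adjusted p = 0.988 for each).

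Mmp9, the gelatinase of neutrophils and macrophages, had 72.4, 15.0 and 3.99 normalized counts in knockout replicates 1, 2 and 3, and 9.02, 2.90 and 21.1 in wild type replicates 1, 2 and 3. It spanned 24.9-fold over the 6 libraries, the widest of the 9 genes, on between 3 and 59 reads. Its log2 difference was 0.92 (95% interval −1.62 to 3.46, adjusted p = 0.993, limma), and −0.09 without knockout replicate 1. Of the marker lists the acinar one was nearest to it (0.73, where the own spread of Mmp9 was 1.41). The acinar levels were 16.30, 14.94 and 11.50 in the knockout and 14.38, 12.12 and 13.70 in the wild type libraries. With the acinar level as a covariate the Mmp9 difference was 0.28 (SE 0.63, adjusted p = 0.999, limma). The macrophage list followed (1.02), with 12 of 12 markers measured and summed counts of 2966 to 7051 in knockout and 3873 to 5593 in wild type libraries. Of 12 neutrophil markers only Csf3r was measured, at 9.97 to 30.7 in knockout and 8.79 to 12.0 in wild type libraries, and S100a8 and S100a9 were not analysed here. The single genes nearest to Mmp9 were Gm10109 (0.33), Gamt (0.46) and Smim38 (0.47).

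**Figure D2:**
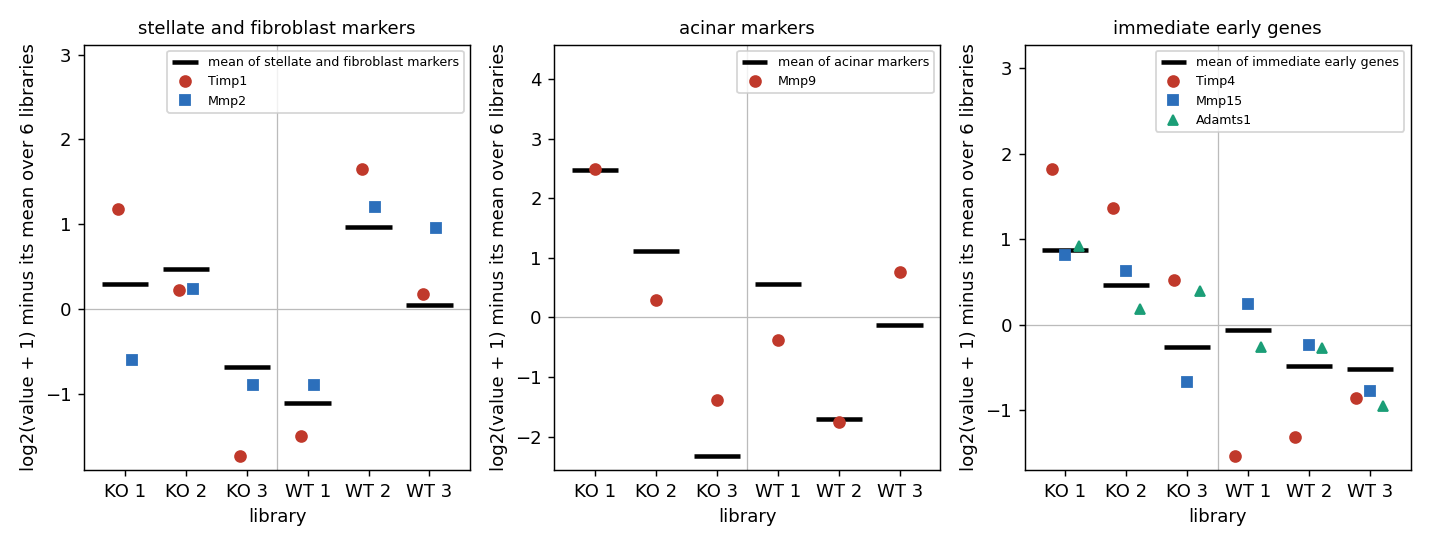
Centred log2(value + 1) per library of Timp1 and Mmp2 with the stellate and fibroblast list (left), Mmp9 with the acinar list (middle), and Timp4, Mmp15 and Adamts1 with the immediate early list (right). Black bars are the list means and symbols are single genes, and KO 3 and WT 1 are the low libraries of the left panel.

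The immediate early list was the nearest of the 15 lists to Mmp15 (0.26), Adamts1 (0.37) and Timp4 (0.94). The next lists were the alpha cell markers for Mmp15 (0.42), duct markers for Adamts1 (0.41) and inflammatory genes for Timp4 (1.04). The own spreads of Mmp15, Adamts1 and Timp4 were 0.61, 0.59 and 1.31. Among single genes, Gm26586 (0.41), Gm26648 (0.54) and the AP-1 gene Fosb (0.54) were nearest to Timp4. Fosb had 2112, 2277 and 846 normalized counts in the knockout and 415, 567 and 800.1 in the wild type libraries. Because Timp4 was chosen for a genotype difference, genes near it share that difference by construction. Within the set, Timp2 and Mmp14 were the most alike pair (0.29), and Timp4 and Mmp2 the least alike (1.79). The own spread of Timp2 (0.18) was smaller than its distance to Mmp14, and genes that vary little lie near each other by this measure. These distances over 6 libraries are descriptions and were not tested.

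Within each family, the shares of Timp3, Timp1, Mmp15 and Mmp2 in the level per kb overlapped between the genotypes. Timp3 took 36.6%, 40.3% and 62.1% of the summed Timp level in the knockout and 36.2%, 40.5% and 42.5% in the wild type libraries. Timp1 took 29.7%, 17.3% and 4.90% in the knockout and 7.47%, 34.1% and 16.8% in the wild type libraries. Among the 4 matrix metalloproteinases, Mmp15 took 56.9%, 56.1% and 51.7% in the knockout and 58.4%, 37.9% and 33.7% in the wild type libraries. Mmp2 took 5.60%, 11.4% and 11.6% in the knockout and 7.02%, 27.6% and 30.0% in the wild type libraries. The summed Timp level was 3.07, 3.02 and 6.06 times the summed Mmp level in the knockout and 2.83, 5.14 and 4.83 times in the wild type libraries, so the ratios overlapped.

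**Figure D3:**
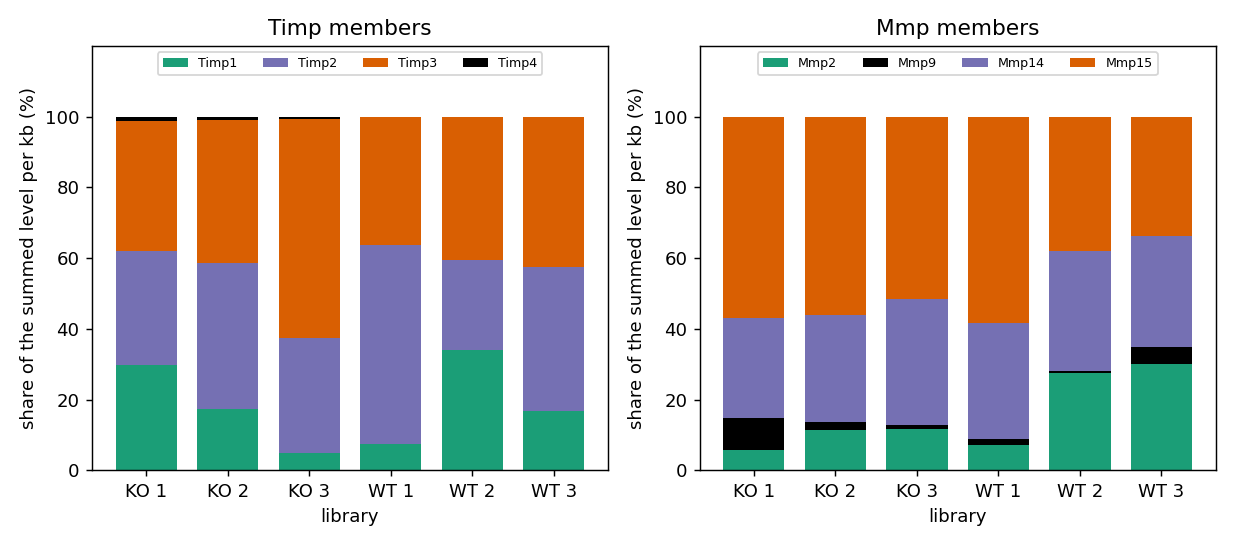
Share of each gene in the summed level per kb of the 4 Timp genes (left) and of the 4 Mmp genes (right), in percent, per library. Timp4 is the thin black band on the left, between 0.642% and 1.26% in knockout and at most 0.200% in wild type libraries, and Mmp2 is largest in wild type replicates 2 and 3.

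Counted over the members without Timp4, limma called 0 of 8 between knockout and wild type, where it called 0.00% of the 16042 genes tested. Sec16b itself was not called either (log2 difference −1.22, unadjusted p = 0.0108, adjusted p = 0.993, limma). A call of 0 members therefore does not show that they were unchanged. EdgeR on the recovered reads called 0 of 8, where it called 0.00% of genes, and DESeq2 called 0 of the 5 for which it gave an adjusted p (Timp1, Mmp2 and Mmp9 had none), where it called 0.114% of the 10555 genes with one. At an unadjusted p under 0.05 each tool had 1 of 8, in limma Adamts1, against 3.08% of all genes in limma, 3.17% in edgeR and 3.28% in DESeq2. The groups did not overlap in 1 of these 8, against 9.08% of all tested genes (3.85% with the knockout higher and 5.22% with the knockout lower). The log2 difference was above 0 in 5 of the 8, against 49.4% of all tested genes. Their median was 0.14, against −0.003 over all tested genes, and the median standard error of the 8 was 0.37.

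**Figure D4:**
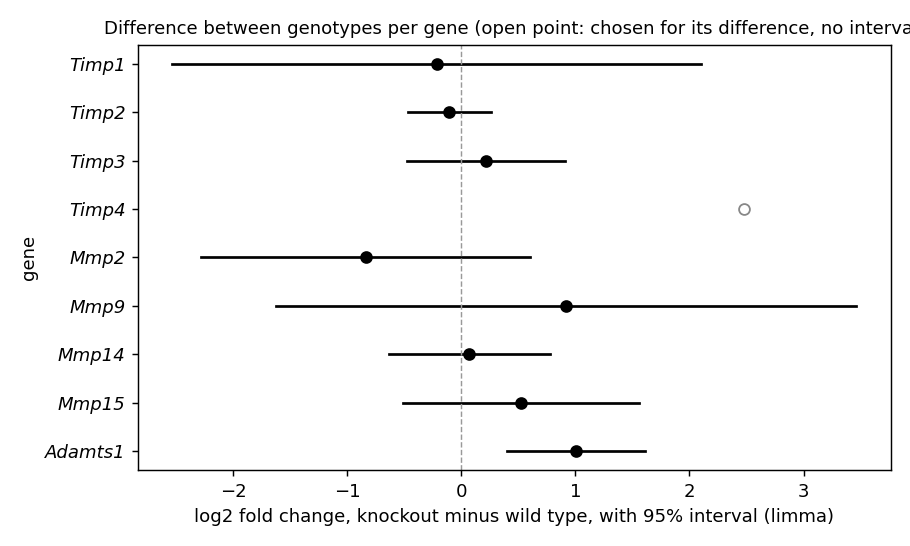
Log2 fold change, knockout minus wild type, of each of the 9 genes with its 95% interval from limma. Timp4 (open point, 2.47) was chosen for its difference and has no interval, Adamts1 stands at 1.002, and the intervals of the other 7 genes include 0. The intervals are not adjusted for the number of genes tested, and Adamts1 was not called after adjustment (adjusted p = 0.993, limma).

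No gene of the wider protease system was called by limma. Of its 82 tested genes, 2 had an unadjusted p under 0.05 in limma (Adam23 and Plat), against 3.08% of all genes, and 3 in edgeR, against 3.17%. DESeq2 had 6 of 83, against 3.28%, and gave an adjusted p for 47 of them. Called after adjustment were 0 in each of these tools. The groups did not overlap in 4 of the 82, against 9.08% of all tested genes in either direction. All 4 were higher in the knockout, against 3.85% of all tested genes in that direction. Of the other matrix metalloproteinases listed, 11 of 19 were tested, with 6 higher and 5 lower in the knockout, a median log2 difference of 0.02 and 0 called in either direction. Mmp24, a membrane-anchored enzyme known from neurons, averaged 711 ± 194 in knockout and 892 ± 227 in wild type libraries (SD, n = 3 each). Mmp19 averaged 247 ± 165 in knockout and 178 ± 123 in wild type libraries, Mmp23 50.1 ± 21.1 in knockout and 40.2 ± 12.2 in wild type, and Mmp11 13.9 ± 7.79 in knockout and 14.8 ± 6.13 in wild type libraries (SD, n = 3 each). These differences lay within the spread of the libraries.

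Of 13 Adam genes, which encode membrane proteases that shed cell surface proteins, 11 were tested and 0 were called. Their median difference was 0.18, with 9 higher. Adam10, a main sheddase, averaged 2760.2 ± 836 in knockout and 2403 ± 219.9 in wild type libraries, and Adam17, which releases tumour necrosis factor, 755 ± 23.8 in knockout and 778 ± 114 in wild type libraries (SD, n = 3 each). The groups did not overlap in 2 of the 11, against 9.08% of all tested genes in either direction. Both were higher in the knockout, against 3.85% in that direction, and both are named here after their values were seen. Adam15 had 712, 656 and 723 normalized counts in the knockout and 556, 654 and 618 in the wild type libraries, so the nearest values of the 2 groups were 656 and 654. Adam23, a form without protease activity, had 164, 167 and 118 in the knockout and 109, 108 and 77.4 in the wild type libraries.

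Of 18 other Adamts genes, 11 were tested, with 7 higher, a median of 0.17 and 0 called. Adamts5, an aggrecanase, had 45.4, 65.6 and 68.8 normalized counts in the knockout and 32.1, 38.7 and 41.3 in the wild type libraries, without overlap. Its log2 difference was 0.65 (SE 0.28, adjusted p = 0.993, limma). Adamts4 had 813, 362 and 289 in the knockout and 195, 459.9 and 159 in the wild type libraries. Adamts9 had 1178, 518 and 323 in the knockout and 265, 510.3 and 249 in the wild type libraries. In both, wild type replicate 2 reached into the knockout range.

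Of 25 regulators of these proteases, 24 were tested, with 14 higher, a median of 0.13 and 0 called. Plat, tissue plasminogen activator, had 1288, 930.2 and 873 normalized counts in the knockout and 566, 841 and 528 in the wild type libraries, without overlap (log2 difference 0.68, SE 0.22, adjusted p = 0.993, limma). Plau, the urokinase-type activator, had 818, 542 and 250.2 in the knockout and 317, 383 and 157 in the wild type libraries, with overlap. Reck, a membrane inhibitor of metalloproteinases, averaged 196 ± 56.0 in knockout and 174 ± 16.3 in wild type libraries (SD, n = 3 each). Bsg, a surface protein that induces metalloproteinases, averaged 8642 ± 655 in knockout and 8661 ± 424 in wild type libraries. Furin, which cuts the precursors of Mmp14 and Mmp15, averaged 3377 ± 514 in knockout and 3467 ± 547 in wild type libraries. Lrp1, which clears proteases from the surroundings of the cell, averaged 1038 ± 296 in knockout and 1163 ± 238 in wild type libraries, and the growth factor gene Tgfb1 702 ± 211 in knockout and 783 ± 197 in wild type libraries (SD, n = 3 each).

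All 25 substrate and matrix genes were tested, with 11 higher and 14 lower, a median of −0.04 and 0 called. The fibrillar collagen genes Col3a1 and Col1a1 spread widely among the wild type libraries. Col3a1 had 113, 123 and 74.8 normalized counts in the knockout and 29.1, 1466 and 459.9 in the wild type libraries, and Col1a1 had 109, 241 and 67.8 in the knockout and 39.1, 973 and 369 in the wild type libraries. Wild type replicates 2 and 3 were the high libraries of both collagens, as they were of Mmp2, and wild type replicate 1 was the lowest of all 6 for both collagens. Both collagens belong to the stellate and fibroblast list set beside Mmp2 above. The level of that whole list averaged 6.72 in knockout and 6.66 in wild type libraries. Col4a1, the basement membrane collagen, averaged 4408 ± 841 in knockout and 4041 ± 1177 in wild type libraries (SD, n = 3 each). Fn1, fibronectin, averaged 383 ± 244 in knockout and 424 ± 423 in wild type libraries, and Sparc, a collagen-binding matrix protein, 1378 ± 241 in knockout and 1425 ± 333 in wild type libraries (SD, n = 3 each).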

How the data were processed

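Frozen islets gave 6 RNA libraries, and each was assigned its genotype and replicate number by its title. The deposited signal values are gene read counts scaled by the authors with 1 size factor for each library. This was read off the values, of which 100% were whole multiples of 1 step per library within 0.01 reads. Per the submitters' processing notes the aligner was HISAT2. Its version, the counter, the build and the strandedness were not given in the sources used here. Every gene in the table had at least 1 read in every library, so genes silent in a library were not analysed here.

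Of 18437 genes, 16042 reached 10 in 3 or more libraries and were tested. Knockout minus wild type was fitted to log2(value + 1) in limma 3.58.1 (R 4.3.3) with a variance trend, two-sided, with Benjamini-Hochberg adjustment at 0.05 over all tested genes. EdgeR 4.0.16 and DESeq2 1.42.0 on the recovered reads were alternatives, beside other pseudocounts, filters and scalings, covariates, a replicate block and leaving out each library. The fits were tested on simulated counts. Exon lengths and gene overlaps came from GENCODE M21, whose build may differ from the authors', so levels per kb are approximate. The members and lists were chosen with earlier results of these data known. Named were all members, fixed pathway genes whatever their values (1 of them is not reported here), any pathway gene past the threshold (0), and the genes and lists nearest to a member. Marker levels are means of log2(value + 1) over tested list genes.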

Additional observations from a re-analysis of the deposited data

How the results depend on the processing

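The call of 0 members and 0 pathway genes held in all 16 alternatives. Over all genes, 0 were called in every alternative except DESeq2, which called 12 and left the adjusted p undefined for 7882 genes. At an unadjusted p under 0.05, limma had 494 genes and edgeR 509. Of the 9 members, Adamts1, Mmp15 and Mmp2 kept their sign in every alternative run, and 5 changed sign in at least one. Timp4 also kept its sign, but it was chosen for higher knockout values, so its sign carries no weight here. The other filters and the replicate block leave the log2 difference as it was, so those alternatives could not change a sign. Mmp14 was −0.066 with the acinar covariate. Leaving out each library in turn, Mmp14 ranged from −0.11 to 0.40, Mmp9 from −0.094 to 1.85, Timp1 from −1.02 to 0.59, Timp2 from −0.22 to 0.043 and Timp3 from −0.10 to 0.48; the cause was not tested. Timp4 was 1.92 with a pseudocount of 5. Mmp9 and Timp4 could not be fitted with a minimum value of 50, which removes them. The count of members other than Timp4 whose groups did not overlap lay between 1 and 3 when any one library was left out (3 without knockout replicate 3, against 25.1% of all tested genes). The labels do not tie replicate numbers to a shared source. Deviations of same-numbered libraries correlated at 0.43, 0.0037 and 0.37, and those of unlike-numbered ones at −0.41 to 0.20, so replicates 1 and 3 but not 2 of the knockout correlated best with their own number, and the numbers were not taken as pairs. With the replicate block 0 genes were called, and 864 had an unadjusted p under 0.05 in limma. Those included 2 of the 8 members without Timp4 and 9 of the 82 pathway genes, against 1 and 2 in the main fit. The stellate and fibroblast covariate gave the same 2 and 9, with 508 genes in all. Over the alternatives, such members numbered 1 or 2 and such pathway genes 0 to 9. For genes of a few reads, such as Timp4 in the wild type and Mmp9, depth limits the precision.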

Other observations

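A pair of matrix metalloproteinases outside the members, named here after their values were seen, varied widely between libraries. Mmp12, the elastase of macrophages, had 68.7, 147 and 83.7 normalized counts in knockout replicates 1, 2 and 3, and 89.2, 86.2 and 958 in wild type replicates 1, 2 and 3. Wild type replicate 3 was the only one of the 6 libraries above 147. Its summed macrophage marker count, 4887, lay between those of the other wild type libraries, 5593 and 3873, and its mean log2 macrophage level, 7.71, was above theirs, 7.27 and 7.23. The knockout libraries had macrophage levels of 8.16, 7.76 and 6.69, and the part of macrophages in the Mmp12 values was not tested. Mmp3, stromelysin, had 58.9, 30.9 and 13.0 in the knockout and 73.2, 66.8 and 8.79 in the wild type libraries. Limma called neither (adjusted p = 0.993 for each).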
